A study of Mus musculus with 13 samples.

Results

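Type 2 conventional dendritic cells (cDC2) of the mouse lung that carry Cd209a, the gene of a DC-SIGN lectin, were examined in a single-cell RNA count matrix. A cell was counted as cDC2 if at most 10% of its unique molecular identifiers (UMIs, each marking 1 captured RNA molecule) came from mitochondrial genes and it held at least 1 UMI of Cd209a and at least 20 UMIs over H2-Aa, H2-Ab1 and Cd74. It also had to hold fewer than 10 UMIs over C1qa, C1qb and C1qc, and no UMI of Xcr1, Clec9a, Ccl22 or Cd79a. In libraries 1, 2, 3 and 7, 368 cells met this rule, out of 20856 cells with few mitochondrial UMIs, 24344 barcodes of those libraries and 37344 barcodes of the whole matrix. All of these genes were measured to choose the cells, so their levels in cDC2 describe the choice and are not a result.

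The study asked how inflammatory cells, above all eosinophils, take part in elastase-induced emphysema, and dissociated whole mouse lungs for single-cell sequencing. By the labels the 4 single-cell samples were an Asthma model (mice sensitized to and challenged with ovalbumin, OVA), a PPE-emphysema model (porcine pancreatic elastase, PPE, instilled into the trachea every week), a PPE-recovery model (a single instillation of PPE and then rest) and a Control. The methods give C57BL/6 mice and 1 mouse for each of these groups. The other 9 labelled samples (Acute injury, Con and emphysema, 3 each) were taken as bulk RNA samples and not analysed here. No age was given in the sources used here. The barcodes number 7 libraries without naming a group, and nothing ties a number to a mouse. The matrix was therefore read as 1 sample, and each library value below stands under its number, with no test between groups. Pooled UMIs were scaled to a common total and given as CPM, the count of a gene per 1e6 UMIs, and intervals are exact 95% limits that cover counting error only.

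Conventional dendritic cells arise from bone marrow precursors under the growth factor FLT3L, take up antigen in tissue, and carry it to lymph nodes, where they present it to T cells. The cDC1 lineage depends on IRF8 and BATF3 and is known for presentation to CD8+ T cells, while the cDC2 lineage depends more on IRF4 and is known in the lung for starting helper T cell responses, type 2 responses to allergens among them. Monocytes entering an inflamed lung can take on MHC class II and several of the same lectins, which makes the border between cDC2 and monocyte-derived cells hard to draw from RNA.

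Cd209a is 1 of 7 CD209 family genes in the matrix, and the only one the rule used. The family lies in a cluster on mouse chromosome 8 (GRCm38), where the Cd209a gene spans chr8:3743397-3748984, Cd209e chr8:3847965-3854309 and Cd209d chr8:3871824-3878555, each on the minus strand. The promoters of these 3 genes are shown because Cd209d and Cd209e were, after Cd209a itself, the family members with the most UMIs in cDC2. Each sequence is the RefSeq GRCm38.p6 reference on the strand of the gene, from 100 bases before to 10 bases after the annotated start, and the capitals mark a match to GGAA, any 2 bases, then GAAA, read here on the opposite strand. Such a composite of ETS and IRF letters is known to be bound by PU.1 together with IRF4 or IRF8. They lie at chr8:3748975-3749084, chr8:3878490-3878599 and chr8:3854277-3854386 in the order given.
Cd209a: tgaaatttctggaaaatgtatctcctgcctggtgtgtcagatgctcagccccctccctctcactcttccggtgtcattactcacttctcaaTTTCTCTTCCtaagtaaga
Cd209d: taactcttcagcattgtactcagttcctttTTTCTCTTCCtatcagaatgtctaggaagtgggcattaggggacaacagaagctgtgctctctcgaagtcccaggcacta
Cd209e: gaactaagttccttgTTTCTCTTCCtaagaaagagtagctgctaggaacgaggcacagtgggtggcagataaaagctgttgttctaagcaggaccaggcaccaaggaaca

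The same 10 letters stood in all 3 promoters, 9 bases before the start in Cd209a, 70 before it in Cd209d and 85 before it in Cd209e, counted from the RefSeq start, which in Cd209d and Cd209e lies inside the gene span given above and not at its end. With both strands searched over 250 bases before to 50 after the start, 3 of the 7 family promoters and 892 of 32851 RefSeq promoters (2.72%) held a match. The promoters of Cd209b, Cd209c, Cd209f and Cd209g held none. CCAAT, present in 37.4% of all promoters, and a longer PU.1 motif, present in 3.20%, were also searched on both strands, and neither stood in the Cd209a, Cd209d or Cd209e promoter. A match describes these letters and does not show that a factor binds there. The family members are close copies of each other, so reads could be lost or shared between them, and the split of counts among them carries that uncertainty.

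The family differed in how much RNA cDC2 held of each member. Cd209d gave 503 UMIs in 116 cDC2, at 159 CPM in library 1, 56.7 in library 2, 72.1 in library 3 and 107 in library 7. Cd209e gave 202 UMIs in 50 cDC2 and differed more between libraries, at 107, 6.83, 1.27 and 39.3 CPM in the same order. Cd209b gave 119 UMIs in 35 cells and Cd209c 100 UMIs in 64 cells. Cd209f and Cd209g had no UMI in cDC2, which allows up to 0.576 CPM, while C1q macrophages held them at 22.9 and 5.66 CPM. Of the 50 cells with Cd209e, 32 also had Cd209d (64% of the Cd209e cells and 27.6% of the 116 Cd209d cells). A UMI of Cd209d was found in 31.5% of cDC2 (26.8 to 36.5), against 0.0921% of 1086 T cells and 0.0868% of 2304 endothelial cells, which should lack it. The median depth was 12843 UMIs per cDC2, 6086.5 per T cell and 5066.5 per endothelial cell, and after thinning every cell to 1500 UMIs the cDC2 share was 9.54%.

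The 4 libraries gave 87, 145, 62 and 74 cDC2, in the order 1, 2, 3 and 7. As a share of their cells this was 1.81% (1.45 to 2.23) in library 1, 1.90% (1.61 to 2.23) in library 2, 1.21% (0.928 to 1.55) in library 3 and 2.24% (1.76 to 2.81) in library 7, so that library 3 lay below the others with an interval that overlapped that of library 1. The libraries held 50552002, 79439569, 47364075 and 34606626 UMIs in all, of which cDC2 held 1317675, 1903639, 790381 and 1197379. Library 3 also had the shallowest cDC2, with a median of 11486 UMIs per cell against 14311, 12683 and 13865 in libraries 1, 2 and 7. Between these libraries 64 barcode sequences occurred more than once among 24280, which touched 3 cDC2, and no sequence was shared by cDC2 of different libraries.

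The rule cut through a continuum at several of its limits. Of the 743 cells with a Cd209a UMI, 375 were left out: 106 had fewer than 20 class II UMIs, 55 had 10 or more C1q UMIs, 97 had Xcr1 or Clec9a, 141 had Ccl22 and 21 had Cd79a, with some cells in more than 1 of these. Among cDC2, 62 cells (16.8%) held a single Cd209a UMI, and 24 cells with Flt3 and Mgl2 were outside only because they had no Cd209a UMI. The 19 cDC2 with 20 to 39 class II UMIs had 800.5 CPM of Ly6c2 and 6.40 of Mgl2, and the 15 cells just outside, with 10 to 19 class II UMIs, had 796 and 79.0. The 5 cDC2 with 5 to 9 C1q UMIs had 1610 CPM of Mgl2, and the 5 cells with 10 to 19 had 2742. The 12 cDC2 with 8 to 10% mitochondrial UMIs had 1434 CPM of Siglech, and the 3 cells with 10 to 12% had none.

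Several genes known for cDC2 that the rule did not use were present, and the ones below were shared with other groups to different degrees. Flt3, the receptor of FLT3L, stood at 114 CPM (105 to 123), with 149, 87.7, 119 and 113 CPM in libraries 1, 2, 3 and 7, and Zbtb46, a transcription factor of conventional dendritic cells, at 45.9. Classical monocytes (cells with Ly6c2, Ccr2 and Lyz2 and few class II UMIs) had 15.9 CPM of Flt3 and 1.08 of Zbtb46, and C1q macrophages 0.772 and 3.09. Flt3 was found in 63.9% of cDC2 (58.7 to 68.8), in 0.184% of T cells and in 0.521% of endothelial cells, but also in 73.2% of cDC1 and 53.8% of mature dendritic cells. Zbtb46 was found in 35.9% of cDC2, 45.1% of cDC1, 57.1% of mature dendritic cells and 23.4% of endothelial cells, so neither gene was more frequent in cDC2 than in all other dendritic cells. Mgl2 (CD301b), a galactose lectin, was found in 62.8% of cDC2, 0.552% of T cells and 1.17% of endothelial cells, and in 65.5% of C1q macrophages and 19.7% of cDC1. Its neighbour Clec10a was found in 54.3% of cDC2, 0.368% of T cells and 0.391% of endothelial cells, and in 25.6% of C1q macrophages and 9.26% of cDC1. The median depth was 17240 UMIs per cDC1, 12554.5 per mature dendritic cell and 11585 per C1q macrophage. Clec4a4, the lectin DCIR2 of another cDC2 subset in lymphoid organs, had no UMI in 368 cells, which allows up to 0.815% of cells with a UMI (3 cells of 368) and does not limit the share of cells that express it. Of 7 eosinophil markers Ccr3, Epx, Prg2, Il5ra and Ear6 were at 0 in cDC2, Siglecf was at 5.18 CPM and the list summed to 6.72 CPM.

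**Figure D1:**
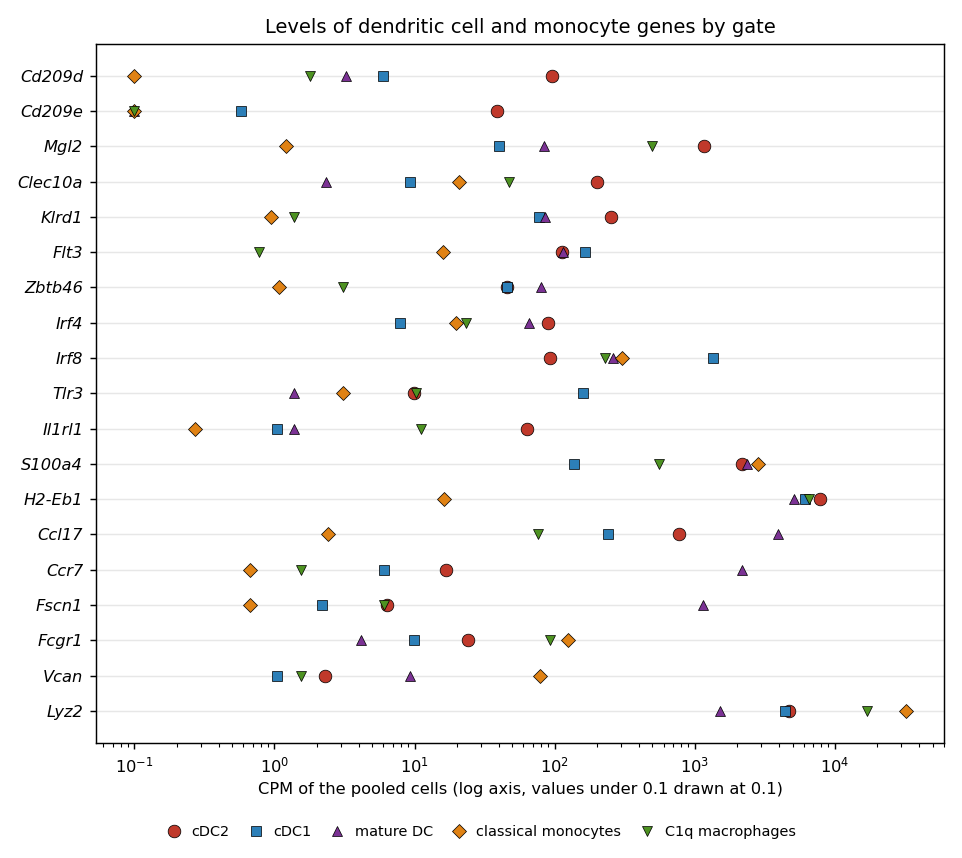
Level in CPM (log axis, values under 0.1 drawn at 0.1) of 19 genes in the pooled cDC2 and in 4 other groups of cells chosen by their own genes. The cDC2 points of Cd209d, Cd209e, Mgl2 and Clec10a lie to the right of the other groups, those of Irf8 and Tlr3 lie to the left of cDC1, and those of Ccr7 and Fscn1 to the left of mature dendritic cells.

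Against cDC1 (497 cells with Xcr1 or Clec9a and no Cd209a or Ccl22), 109 of 6093 genes (1.79%) were at least 4-fold higher in cDC2 and 74 (1.21%) at least 4-fold lower, with a median log2 ratio of 0.06 over all genes compared. Of 7 epithelial markers compared, 6 were among the higher genes (Cdh1, Scgb1a1, Sftpa1, Sftpb, Sftpc and Sftpd), and most UMIs of Scgb1a1 and Sftpc sat in a few cells, as given near the end. Without cells carrying RNA of another type, Scgb1a1 was at 285 and Sftpc at 41.7 CPM, against 8970.5 and 1459 in all cDC2. Cdh1 had a UMI in 124 cDC2, at 156, 45.2, 7.59 and 210 CPM in libraries 1, 2, 3 and 7. Without those cells Cdh1 was at 165, 36.5, 7.57 and 227 CPM. With such cells left out of all groups the counts stayed within 1.5 times, and the part of these markers was not otherwise tested. A gene was compared if it had at least 20 CPM in either group and at least 20 UMIs in both together, and genes of the rules were left out. Both groups were chosen by their own RNA, so these counts are a description and carry no test. Among higher genes with at least 50 CPM in cDC2 and the same direction in all 4 libraries, ranked by the limit of the counting interval nearest to 1, the first was Il1rl1, the receptor ST2 of the alarmin IL-33. It stood at 37.2, 81.9, 56.9 and 66.8 CPM in the cDC2 of libraries 1, 2, 3 and 7, and at 0, 2.14, 0.953 and 0 CPM in the cDC1. Every cDC2 value lay above every cDC1 value, and the pooled levels of 63.4 and 1.04 CPM differed 60.7-fold (31.6 to 134).

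Lectins followed. Mgl2 stood at 1015, 1331, 509.9 and 1522 CPM in libraries 1, 2, 3 and 7, and was 29.3-fold higher in cDC2 (26.3 to 32.7) than in cDC1. The lowest library, 3, was still above all 4 cDC1 values. Clec10a, a galactose lectin beside Mgl2 on chromosome 11, stood at 178, 227, 153 and 208 CPM and was 21.5-fold higher (17.1 to 27.3), and Cd209d was 16.3-fold higher (12.2 to 22.2). Of the 16 C-type lectins in the list, 11 were compared, and Clec10a, Clec4a1, Clec4b1 and Mgl2 were at least 4-fold higher. Over all genes compared with cDC1, 1.79% were higher and 1.21% lower. Ly75 (DEC-205), a lectin of cDC1, was at least 4-fold lower, at 7.29 against 53.1 CPM. The median log2 ratio of the 11 was 0.59.

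The remaining named genes above cDC1 were of several kinds. S100a4, a calcium-binding protein, was 15.9-fold higher (14.9 to 16.9), at 2188 against 138 CPM, and Ms4a4c, a membrane protein of the MS4A family, 19.4-fold higher (16.3 to 23.3). Tmem176b and Tmem176a, neighbouring genes of channel proteins, were 15.6- and 14.9-fold higher. Aqp3, a water and glycerol channel, was 23.0-fold higher (14.4 to 38.8), but it was lowest in library 3 and highest in library 1, at 97.9 CPM. Gfra2, a receptor of the neurturin family, was 19.8-fold higher, Tnfsf9 (the 4-1BB ligand) 13.8-fold and Cx3cr1, the fractalkine receptor, 12.3-fold.

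Of the 8 cDC1 markers compared, 5 were at least 4-fold lower in cDC2 than in cDC1 (Cadm1, Gcsam, Irf8, Itgae and Tlr3) and none higher. Of all genes compared, 1.21% were lower and 1.79% higher. The 74 lower genes also held Chil3 and Ear1, known from alveolar macrophages. Chil3 was more than 4-fold lower in library 1 alone, with 1781, 435, 1231 and 3478 CPM in the cDC2 and 18621, 1287, 1232 and 7891 in the cDC1 of libraries 1, 2, 3 and 7. Irf8 stood at 70.6, 75.1, 224 and 60.1 CPM in the cDC2 of libraries 1, 2, 3 and 7 against a pooled 1349 CPM in cDC1, a ratio of 0.069 (0.0629 to 0.0756). Library 3 had the highest value in cDC2, and all 4 were far below the lowest cDC1 library. In the 339 cDC2 without Siglech, a plasmacytoid gene, Irf8 was at 52.3 CPM, against 93.1 in all cDC2. The 9 cDC2 with 3 or more Siglech UMIs had 2742 CPM of Irf8, and 4 of these cells were in library 3. Tlr3, a receptor of double-stranded RNA, stood at 9.98 against 158 CPM, Rab7b, a GTPase of late endosomes, at 9.98 against 278, and Ifi205, an interferon-inducible gene, at 17.5 against 260. Cd207 (langerin) had 1 UMI in cDC2 against 956 in cDC1, a ratio of 0.00173 with an interval of 4.38e-05 to 0.00968, and Gcsam had 1 UMI against 616. Dnase1l3, a secreted nuclease, stood at 4.22 against 90.4 CPM, with 77.3% of its UMIs in a single cDC2. A530099J19Rik had 2 UMIs against 602.

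**Figure D2:**
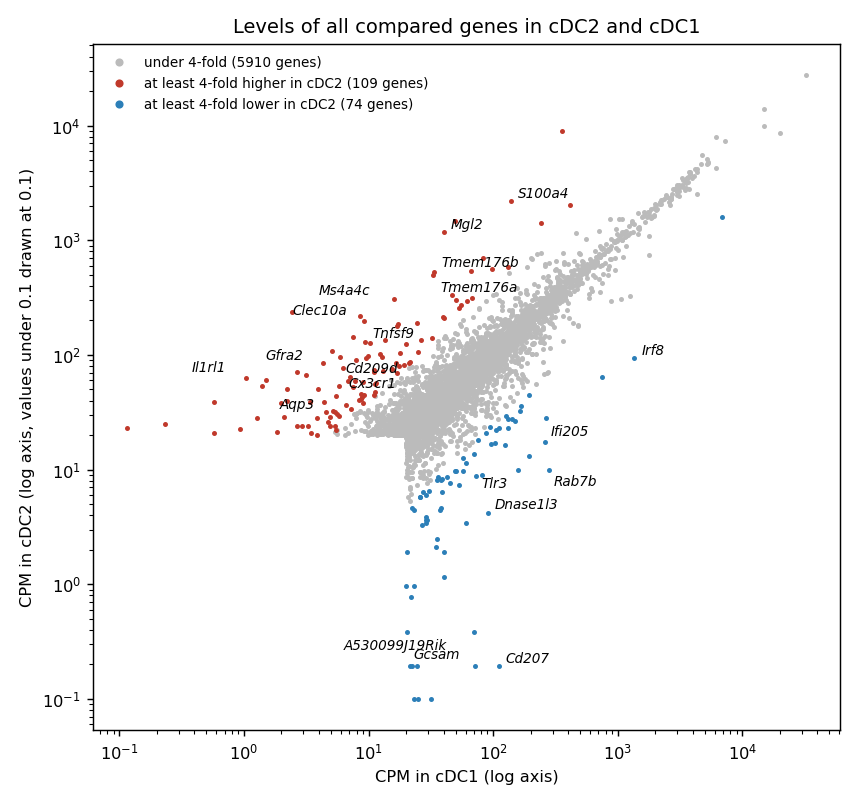
Level of each of 6093 genes in cDC2 (vertical) against cDC1 (horizontal), in CPM on log axes, with genes at least 4-fold apart coloured and the 20 named genes labelled. The cloud follows the diagonal, with 109 genes above it by at least 4-fold and 74 below.

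Transcription factors and class II pathway genes were compared with cDC1 next, where 1.79% of all genes were at least 4-fold higher and 1.21% lower. Of 22 factors 20 were compared, and Irf4 was the single one at least 4-fold higher and Irf8 the single one at least 4-fold lower. Irf4 stood at 83.5, 67.8, 87.3 and 132 CPM in libraries 1, 2, 3 and 7, 89.5 pooled (81.5 to 98.0), against 7.88 in cDC1, 66.2 in mature dendritic cells and 19.8 in monocytes. Klf4, a factor tied to cDC2, was at 316 CPM against 282 in cDC1, and Batf3, a cDC1 factor, at 109 against 135. Of 13 class II pathway genes 10 were compared and H2-DMb2, a chain of the peptide editor H2-M, was at least 4-fold higher, at 311 CPM (296 to 327) against 67.1. Its library values were 369, 356, 152 and 282 CPM. H2-Eb1, a class II beta chain, stood at 7881 against 6169 CPM, H2-DMa at 980 against 939 and Ciita, the class II transactivator, at 270 against 191.

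Receptors of type 2 cytokines and alarmins were next. Of 9 such genes 8 were compared with cDC1, with Il1rl1 and Il2rg (the common gamma chain) at least 4-fold higher and none lower, where 1.79% of all genes were higher and 1.21% lower. Crlf2, the TSLP receptor, stood at 98.7, 147, 180 and 134 CPM in the cDC2 of libraries 1, 2, 3 and 7, and at 96.4 pooled in cDC1. Il13ra1 was at 67.4 CPM in cDC2 and 67.3 in cDC1, and Il4ra at 41.1 and 27.5. Il1rl1 was found in 39.1% of cDC2 (34.1 to 44.3), in 8.66% of T cells, some of which are known to use it, and in 0.347% of endothelial cells. After thinning to 1500 UMIs the shares were 7.90%, 3.99% and 0.0934%. None of the 7 growth factor receptors differed 4-fold from cDC1.

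Chemokines and their receptors differed from cDC1 in both directions, beside 1.79% of all genes higher and 1.21% lower. Ccr1 and Cx3cr1 were at least 4-fold higher than in cDC1 and Cxcr3, a receptor of interferon-induced chemokines, at least 4-fold lower, at 1.92 against 40.2 CPM, out of 7 compared. Ccr2, which draws cells toward CCL2, stood at 503, 582, 844 and 514 CPM in libraries 1, 2, 3 and 7 and at 461 pooled in cDC1. Of 11 chemokines Ccl2 and Ccl24 were at least 4-fold higher and Cxcl9 lower. The call of Ccl24 rested on library 7, with 3.04, 20.5, 2.53 and 991 CPM in the cDC2 and 9.22, 0, 0 and 0.601 in the cDC1 of libraries 1, 2, 3 and 7. Ccl17 (TARC), which draws CCR4+ helper T cells, stood at 647, 596, 250.5 and 1533 CPM in libraries 1, 2, 3 and 7, highest in library 7 and lowest in library 3, and at 242 pooled in cDC1. No cytokine of 8 compared differed 4-fold, and Il1b was at 689 CPM against 206. The pattern recognition receptors Tlr3, Tlr11 and Tlr12 were at least 4-fold lower and none of 8 was higher. Neither the 6 Fc receptors nor the 15 early response genes compared held a 4-fold difference, and of 10 interferon-stimulated genes Ifit3 was higher and Ifi205 lower.

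Cathepsins were included because the study turns on cathepsin L. Ctsl stood at 51.6, 68.8, 92.4 and 160 CPM in the cDC2 of libraries 1, 2, 3 and 7, 88.9 pooled, against 157 in cDC1, 105 in monocytes and 626 in C1q macrophages. Library 7 was highest, with 40.8% of its Ctsl UMIs in 1 cell, and the pooled level was 54.1 CPM once cells with RNA of another cell type (given near the end) were left out. Of 15 cathepsins and proteases compared with cDC1, Ctsk alone differed 4-fold, at 29.4 against 126 CPM, beside 1.21% of all genes lower and 1.79% higher. Cst3 (cystatin C), a cathepsin inhibitor, stood at 8583 CPM in cDC2 and 20057 in cDC1. Mmp12, a macrophage elastase, was at 207, 49.9, 53.1 and 465 CPM over the libraries.

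Mature dendritic cells (156 cells with Ccl22 and Ccr7 and no Cd209a), which are known to migrate to lymph nodes, were compared in the same way. Of 6270 genes, 379 (6.04%) were at least 4-fold higher in cDC2 and 270 (4.31%) lower, with a median log2 ratio of 0.20. Markers of other cell types were among the higher genes, with 5 of 6 classical monocyte markers compared (F13a1, Fcgr1 and Plac8 among them), 4 of 5 of neutrophils (Csf3r, Retnlg, S100a8 and S100a9), 4 of 7 of plasmacytoid cells (Ccr9, Cox6a2, Ly6d and Siglech) and 2 of 7 of epithelium (Cdh1 and Scgb1a1). Cdh1 was not confined to a few cDC2, as given above. With cells carrying RNA of another type left out the counts stayed within 1.5 times, and the part of these markers was not otherwise tested. Clec10a was 86.1-fold higher (36.8 to 266), Il1rl1 45.6-fold (15.5 to 222, on 3 UMIs in mature cells) and Cd209d 29.8-fold (14.4 to 74.5). F13a1, a coagulation factor chain of monocytes and macrophages, stood at 94.8 against 1.85 CPM, St3gal5, a ganglioside synthase, at 88.7 against 2.78 and Rgs18, a regulator of G proteins, at 65.8 against 1.85. Fcrls had 333 UMIs in cDC2 and 1 in mature cells. Retnla, a secreted product of IL-4 and IL-13 signalling in macrophages, was 31.4-fold higher, but 57.7% of its 2799 UMIs were in 1 cell.

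The genes named as lower than in mature cells follow. Fscn1, an actin-bundling protein, stood at 6.34 against 1148 CPM, Cacnb3, a calcium channel subunit, at 1.73 against 458 and Ccl5 at 14.8 against 2555. Apol7c had no UMI in cDC2 and 476 CPM in mature cells, at least 826-fold lower with 0 set to 3 counts over the group, and Slco5a1 at least 169-fold lower. The exact upper limits of these 2 ratios, a wider bound, were 0.00149 and 0.00735. Single UMIs of H2-M2 and Il12b stood in cDC2 against 820 and 338 in mature cells, with ratios of 0.000506 (1.28e-05 to 0.00283) and 0.00123 (3.10e-05 to 0.00688). Nudt17 had 2 UMIs against 329. The migration receptor Ccr7 was at 16.9 CPM in cDC2, but the mature cells had been chosen by it.

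Lists differed in both directions in this comparison, in which 6.04% of all genes were higher and 4.31% lower. All 8 compared markers of mature cells were at least 4-fold lower in cDC2, while of 12 costimulatory genes Cd40, Cd200, Cd274 and Pdcd1lg2 were lower and Cd200r1 and Havcr2 higher. Ccl17 was also lower, at 772 against 3966 CPM. Among the factors, Nr4a3 and Relb were lower, with Relb, an NF-kB subunit of maturation, at 40.3 against 463 CPM. H2-DMa, H2-DMb1 and March1, the ligase that turns over class II, were higher in cDC2, at 980 against 168, 612 against 95.3 and 80.1 against 5.09 CPM. No class II pathway gene of 10 compared was 4-fold lower.

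Proliferation genes made up a further block. Of 16 cell cycle genes, 13 were at least 4-fold higher in cDC2 than in mature cells (median log2 ratio 4.13), where 6.04% of all genes were. Against monocytes 14 were higher (2.76), where 3.99% of all genes were, and none differed 4-fold from cDC1 (-0.03). The named genes Ube2c, Cenpf and Pclaf belong here, with Ube2c at 741 UMIs in cDC2 against 2 in mature cells, a ratio of 154 (42.4 to 1271). Summed over Mki67, Top2a, Birc5, Cdk1, Ccna2, Ccnb1, Ccnb2 and Ube2c, cDC2 had 1542 CPM (1476 to 1611) in library 1, 287 (264 to 312) in library 2, 605 (552 to 661) in library 3 and 166 (144 to 191) in library 7. Library 1 was thus highest. In cDC1 the same sum was 590, 573, 372 and 207 CPM, and in endothelial cells 968, 49.4, 8.16 and 51.9, so that library 1 was also highest there. In T cells library 2 was highest (1044, 1049, 772 and 430) and in monocytes library 7 (141, 8.77, 33.3 and 172). After thinning to 1500 UMIs, 16.1% of cDC2 (12.5 to 20.2) and 16.1% of cDC1 had a UMI of these 8 genes, against 2.58% of mature cells, 2.72% of monocytes, 3.55% of endothelial cells and 13.9% of T cells.

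Against classical monocytes (778 cells), 249 of 6247 genes (3.99%) were at least 4-fold higher in cDC2 and 135 (2.16%) lower, with a median log2 ratio of -0.04. All 7 epithelial markers compared were among the higher genes here, as were 5 of 7 plasmacytoid markers (Ccr9, Cox6a2, Ly6d, Siglech and Spib). With cells carrying RNA of another type left out the counts stayed within 1.5 times, and the part of both lists was not otherwise tested. The monocytes had been chosen to have few class II UMIs, so the class II pathway was bound to differ. H2-Eb1 stood at 6536, 9587, 5759 and 8048 CPM in the cDC2 of libraries 1, 2, 3 and 7 and at 16.3 pooled in monocytes, and 7 of 10 pathway genes were at least 4-fold higher. Of genes outside that pathway, Mgl2 was 965-fold higher (508 to 2111, on 9 monocyte UMIs), Ccl17 318-fold (201 to 538) and Klrd1, a CD94 lectin receptor known from NK cells, 266-fold (129 to 664). Klrd1 stood at 315, 282, 225 and 149 CPM over the libraries. Cd209d, Sept3 and Aqp3 had no UMI in monocytes and were at least 239-, 167- and 125-fold higher with 0 set to 3 counts over the group. The exact lower limits of these 3 ratios, a wider bound, were 194, 135 and 101. Sept3 was higher in cDC1 than in cDC2 in libraries 1, 2, 3 and 7, at 213, 222, 253 and 385 against 156, 38.9, 15.2 and 50.1 CPM. Of 10 dendritic cell identity genes 8 were at least 4-fold higher, including Flt3, Zbtb46, Kit, Dpp4 and Bcl11a, and none was lower.

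Genes known from monocytes made up the other side, and neutrophil markers were lower with them. Of 6 neutrophil markers compared, 4 were at least 4-fold lower (Csf3r, Mmp8, S100a8 and S100a9) and none higher. Cd177, a neutrophil and monocyte surface protein, stood at 4.03 against 154 CPM, Vcan (versican) at 2.30 against 79.1, Thbs1 (thrombospondin) at 55.1 against 790, C3 at 33.8 against 389, Mmp8 at 8.06 against 113 and Gsr (glutathione reductase) at 77.9 against 786. Sgms2 and Trem3 were also among the named genes, at 2.11 against 68.8 and 3.07 against 63.1 CPM. Of 7 monocyte markers compared, 6 were at least 4-fold lower and none higher, where 2.16% of all genes were lower and 3.99% higher. F13a1, Fcgr1, Plac8 and Vcan were among the 6, and Fcgr1 stood at 24.2 in cDC2 against 124 CPM. In the cDC2 of library 3 several of these genes were at their highest, with Cd177 at 11.4, Thbs1 at 127 and C3 at 49.3 CPM, while Vcan and Mmp8 were highest in library 2.

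The cells were also described by their level of Cd209a, a gene the rule used, so the following is a description only. Grouped by their Cd209a UMIs (1, 2 to 4, 5 to 9, 10 to 19, and 20 or more, with 62, 72, 76, 86 and 72 cells), cells with more Cd209a had more Mgl2, at 563, 820, 909, 1172 and 1946 CPM. H2-Eb1 went from 4415 CPM in the lowest group to 10224 in the highest. Monocyte genes went the other way, with Lyz2 (lysozyme) at 10232, 7073, 3990, 2849 and 2449 CPM and Ly6c2 at 310, 401, 239, 127 and 67.3. The plasmacytoid gene Siglech was at 158 CPM in the second of these groups and 3.09 in the last. Deeper cells give more UMIs of any gene, and the median depth was 9489, 11465.5, 11790.5, 13224.5 and 15988.5 UMIs in these groups.

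**Figure D3:**
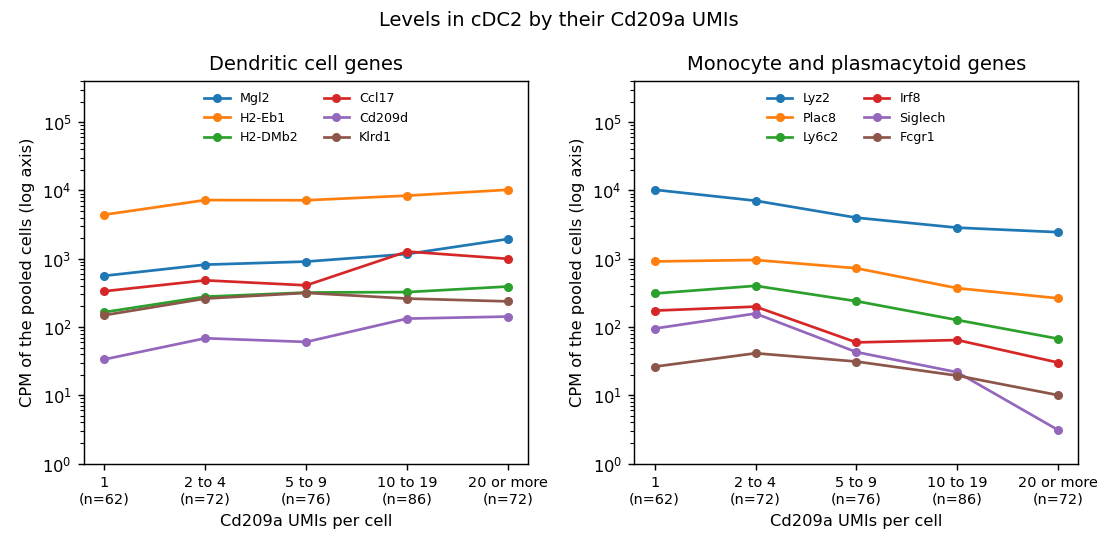
Pooled level in CPM (log axis) of dendritic cell genes (left) and of monocyte and plasmacytoid genes (right) in cDC2 grouped by their Cd209a UMIs, with the number of cells under each group. Mgl2 and H2-Eb1 are highest in the cells with 20 or more Cd209a UMIs, and Lyz2, Plac8, Ly6c2, Irf8 and Siglech are lowest there.

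A monocyte-like share stood at one end. Cells with 3 or more Ly6c2 UMIs (a limit chosen after the values were seen) numbered 55, or 14.9% of cDC2. The 288 cells without Ly6c2 had 1408 CPM of Mgl2, 8994 of H2-Eb1, 1951 of Lyz2 and 187 of Plac8. The 55 cells had 92.6, 1960, 21501 and 2826 CPM of the same genes, with 1223 of Ccr2 and 135 of Fcgr1 (CD64), which the other cells held at 473 and 5.43. Flt3 was at 88.2 CPM in the 55 and 114 in the 288, well above the 15.9 of classical monocytes, and Zbtb46 at 8.82 and 53.1. By these pooled levels the label of conventional dendritic cells holds better for the 288 cells than for these 55, of which 11 had Mgl2. Pooled levels do not give a share of cells. The 137 cDC2 without Mgl2 had 10377 CPM of Lyz2, 1596 of Plac8 and 148 of Flt3, against 2497, 201 and 101 in the 231 with it. The split by Ly6c2 was also seen inside libraries: Lyz2 was at 13322 against 873 CPM in library 1, 29908 against 1983 in library 2 and 19379 against 4887 in library 3. Library 7 had 3 cells with 3 or more Ly6c2 UMIs. Classical monocyte markers summed to 26641 CPM in the 55 cells with Ly6c2 and Chil3 left out, and to 2683 CPM in the 288.

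These cells were spread unevenly over the libraries. They made up 9.20% (4.05 to 17.3) of the cDC2 of library 1, 15.2% (9.76 to 22.1) of library 2, 35.5% (23.7 to 48.7) of library 3 and 4.05% (0.844 to 11.4) of library 7. Library 3 was highest, with an interval above those of all other libraries at this limit. With 1 or more Ly6c2 UMIs it was again highest, at 41.9% (29.5 to 55.2). That interval overlapped the one of library 2, at 22.8% (16.2 to 30.5). After thinning to 1500 UMIs these 2 shares were 29.0% (18.2 to 41.9) and 14.5% (9.19 to 21.3), which also overlapped. Cells with Mgl2 made up 62.1%, 64.8%, 38.7% and 79.7% of the cDC2 of libraries 1, 2, 3 and 7, lowest in library 3 and highest in library 7, and 54.0%, 53.1%, 24.2% and 68.5% after thinning to 1500 UMIs. Whether this reflects the treatment of a mouse or the capture of cells cannot be told apart, since the libraries carry no group.

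**Figure D4:**
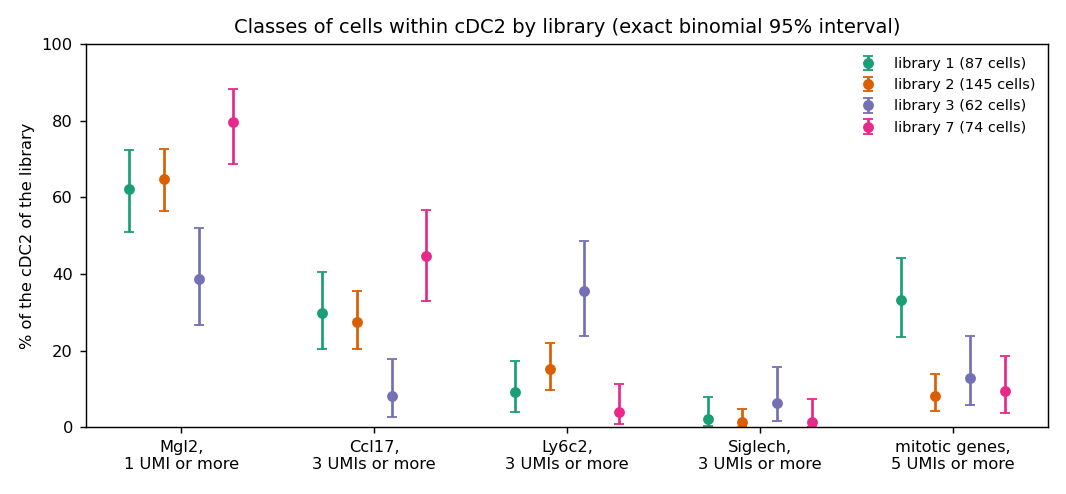
Share of the cDC2 of each library, in percent with exact binomial 95% intervals, that held Mgl2, at least 3 UMIs of Ccl17, Ly6c2 or Siglech, or at least 5 UMIs over 8 mitotic genes. Library 3 has the highest share of Ly6c2 cells (35.5%) and the lowest share of Mgl2 cells (38.7%), and library 1 has the highest share of mitotic cells (33.3%).

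A few cells looked plasmacytoid. Plasmacytoid dendritic cells, the main source of type I interferon, use Tcf4, Irf8 and Siglech. The 9 cells with 3 or more Siglech UMIs (2, 2, 4 and 1 in libraries 1, 2, 3 and 7) had 2805 CPM of Tcf4, 2742 of Irf8, 1913 of Ccr9 and 1798 of Ighm, no Mgl2 and 76.5 of Lyz2. The 8 other plasmacytoid markers summed to 13758 CPM in them and to 395 CPM in the 339 cells without Siglech. Of these 9 cells 7 also had 3 or more Ly6c2 UMIs, a gene that plasmacytoid cells are known to use, so the Ly6c2 cells were of at least 2 kinds. The pooled 54.9 CPM of Siglech (177 in library 3), named among the differences from mature cells and monocytes, came from 29 cells with a UMI.

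Ccl17 marked the other end. The 104 cells with 3 or more Ccl17 UMIs had 1971 CPM of Mgl2, 9529 of H2-Eb1 and 1268 of Lyz2, and 99 of them (95.2%) had Mgl2, as did 42.9% of the Mgl2 cells in return. Cells without Ccl17 (210) had 522 CPM of Mgl2, and were shallower, at a median of 10945 against 16841.5 UMIs. A Ccl17 UMI was found in 42.9% of cDC2, 1.10% of T cells and 0.998% of endothelial cells, and in 24.3%, 0.185% and 0.0934% after thinning. Ccr7 was at 22.6 CPM in the Ccl17 cells and 17.2 in the cells without, far from the 2178 of mature cells.

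Cells with mitotic genes mostly held Mgl2. At least 5 UMIs over the 8 mitotic genes were seen in 56 cDC2, 29, 12, 8 and 7 in libraries 1, 2, 3 and 7, or 33.3%, 8.28%, 12.9% and 9.46%. Of these, 53 (94.6%) had Mgl2 and none had 3 or more Ly6c2 UMIs. Their Lyz2 was at 1078 CPM against 6994 in the 234 cells without a mitotic UMI, their Irf8 at 12.8 against 156 and their Fcgr1 at 0 against 43.2. Siglech was at 0.916 against 97.0 CPM in the same groups, and the part of the plasmacytoid-like cells in the Irf8 values was not tested. They were also the deepest cells, with a median of 20005 UMIs against 11678.5, and the part of depth in these shares was not tested beyond the thinned values above.

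Between libraries, 101 of 1818 genes (5.56%) with at least 100 CPM in their highest library were at least 4-fold apart in cDC2. The count was 60 without library 7, 61 without library 3 and 730 without the limit of 100 CPM. Many of the widest differences sat in single cells. Scgb1a1, the club cell secretoglobin, stood at 131, 404, 536 and 37884 CPM in libraries 1, 2, 3 and 7. One cell of library 7 held 45283 of its 46728 UMIs. Over all cDC2 a Scgb1a1 UMI was found in 87.2%, against 86.5% of T cells and 91.1% of endothelial cells, and after thinning to 1500 UMIs in 36.2%, 51.2% and 61.0%. This share is read as background. Sftpc, a surfactant protein of alveolar type 2 cells, had 97.1% of its 7600 UMIs in 2 cells. Scgb3a1, Cyp2f2, Sftpa1, Sftpb and Chil1, also among the 12 widest, had 56.5% to 100% of the UMIs of library 7 in 1 cell. The epithelial marker list of 8 genes summed to 417, 2739, 635 and 42597 CPM in libraries 1, 2, 3 and 7, led by Scgb1a1 with no gene at 0. Lyz1, S100a8, S100a9 and Ccl24 were also among the named genes. S100a8 and S100a9, neutrophil alarmins, had 91.9% and 86.2% of the UMIs of library 3 in 1 cell, and the 8 neutrophil markers summed to 15.9, 662, 824 and 69.3 CPM, with Ly6g at 0.

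Such cells were counted by limits set after the data were seen. In all 36 cDC2 (9.78%) held a load of another type: 15 endothelial (5 or more Cdh5 UMIs), 7 rich in Chil3 (200 or more), 5 T cell, 4 neutrophil, 3 epithelial, 2 B cell and 2 fibroblast, with some cells in more than 1 class. The 332 others fell 81, 127, 57 and 67 to libraries 1, 2, 3 and 7. Without the 36 cells, 99 of 1858 genes (5.33%) were still at least 4-fold apart between libraries, and Mgl2 was at 1292, H2-Eb1 at 8588 and Lyz2 at 4391 CPM. Whether a loaded cell was 2 cells in 1 droplet was not tested beyond a doublet caller, which marked 15 of the 368.

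Ccl24, an eotaxin that draws eosinophils, was among the widest with and without those cells. Without them it stood at 3.40, 23.8, 3.03 and 1212 CPM, with 13 of its 19 cells in library 7. At least 3 UMIs of it were seen in 12 of all cDC2, 11 of them in library 7. With all cells kept, 21 cDC2 had a UMI of Ccl24, and 2 cells of library 7 held 51.4% of its 1232 UMIs. The other cells of the libraries, which take in every cell outside cDC2, also had it highest in library 7, at 28.9, 10.2, 4.36 and 174 CPM. Retnla stood at 64.5, 320, 323 and 1544 CPM with all cells kept, again highest in library 7, where 1 cell held most of its UMIs. Only 11 cDC2 had 3 or more UMIs of it, 2, 1, 2 and 6 in libraries 1, 2, 3 and 7, so each library level rests on few cells.

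Library 1 and library 3 had their own sides, given for the cDC2 without those 36 cells unless said otherwise. Ube2c stood at 396, 55.4, 156 and 11.3 CPM, and Pclaf, Cenpf and Kif11, all of the cell cycle, were likewise highest in library 1. Cd209e was at 114, 7.31, 1.51 and 41.9 CPM and Timd4, a phosphatidylserine receptor, at 100.2, 11.6, 4.54 and 6.14, though 51.7% of the Timd4 UMIs of library 1 were in 1 cell. In library 3 the monocyte genes were highest, with F13a1 at 80.7, 117, 242 and 6.14 CPM, Plac8 at 508, 638, 1272 and 107 and Thbs1 at 15.3, 77.3, 130 and 3.07. With all cells kept, Ly6c2 was at 72.1, 223, 604 and 66.8 CPM, and the 10 classical monocyte markers summed to 4667, 8038, 15126 and 6431, led by Lyz2 with none at 0. In all other cells of the libraries that sum was 28446, 16566, 15569 and 35611 CPM, a sum led by Chil3 and lowest in library 3, and in cDC1 it was 26543, 5549, 5802 and 12029. In mature dendritic cells it was highest in library 3, as in cDC2, at 2141, 1151, 9249 and 633 CPM. Plac8 was highest in library 3 in cDC1 too, at 192, 135, 443 and 138 CPM. Among the other cells Thbs1 was highest in library 3, at 115, 205, 353 and 88.1 CPM, but Plac8 (716, 319, 646 and 271) and F13a1 (69.1, 62.4, 67.0 and 56.6) in library 1. The part of monocyte-like cells in the other values of library 3 was not tested. Cells without Ly6c2 had 7126, 10944, 8740 and 8317 CPM of H2-Eb1 and 1140, 1620, 890 and 1596 of Mgl2 in libraries 1, 2, 3 and 7.

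**Figure D5:**
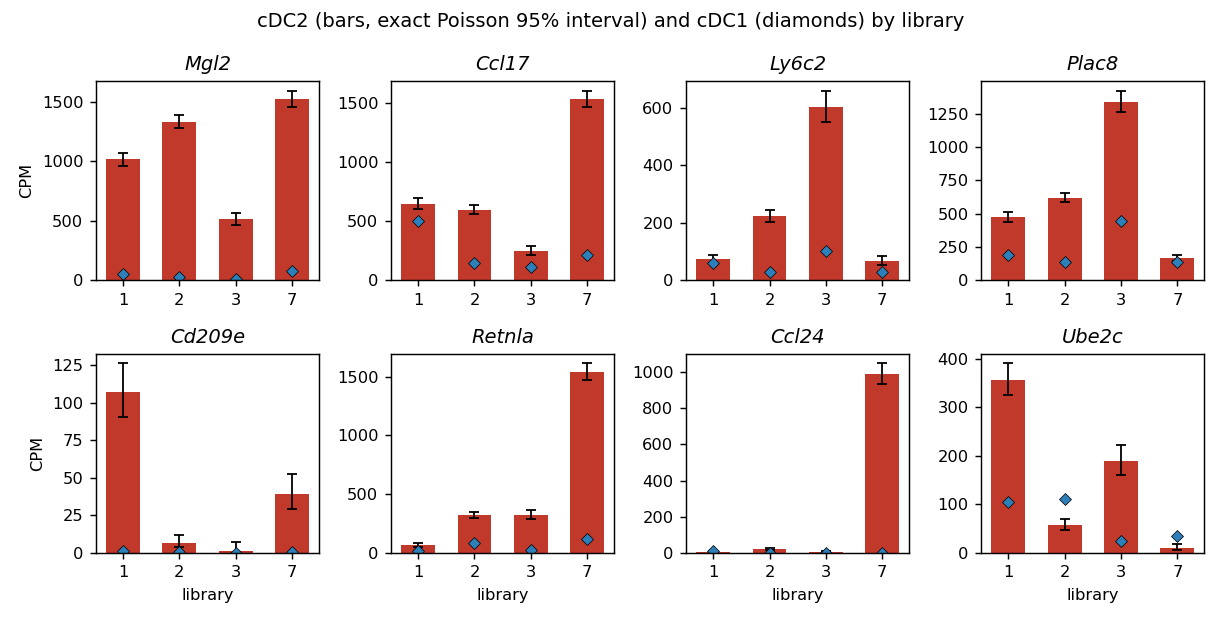
Level in CPM of 8 genes in the cDC2 of libraries 1, 2, 3 and 7 (bars with exact Poisson 95% intervals, all cDC2 kept) and in the cDC1 of the same libraries (diamonds). Mgl2 and Ccl17 are lowest and Ly6c2 and Plac8 highest in library 3, Cd209e and Ube2c are highest in library 1, and Retnla and Ccl24 are highest in library 7.

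At a fixed depth of 1500 UMIs the median ratio of variance to mean between cDC2 was 1.07 over 2912 genes. With few UMIs per gene this ratio can lie near 1 even where cells vary, so it does not show that most genes varied little. The highest ratios were of Scgb1a1 (603), Sftpc (234) and Chil3 (220), a chitinase-like protein of alveolar macrophages. Spp1 (30.0), S100a9 (29.3), Mgp (29.1), Sftpa1 (27.5), Ccl24 (22.1), Retnla (19.6), Scd1 (17.4), S100a8 (16.8) and Gm42418 (15.0) followed. Apart from Gm42418, these genes had 23.6% to 80.8% of their thinned UMIs in 1 cell. With the 36 loaded cells left out, Spp1 (osteopontin) led at 32.3 with 55.8% in 1 cell, and Ccl17 had a ratio of 8.12, spread over 84 cells with at most 5.28% in any.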

How the data were processed

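Lungs were dissociated with proteases and cells captured with a 10x Genomics 3' kit. The authors made the deposited matrix of UMI counts per gene and cell with Cell Ranger 3.1.0 and STAR on mm10, per the submitters' processing notes, and these counts carry no normalization. It holds 31053 genes, 37344 barcodes and 7 libraries, of which 4 were used here.

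Cells were chosen by the rule given above, with no cap on UMIs and no doublet removal. UMIs were summed over cells and scaled to CPM. Levels carry exact Poisson limits, ratios exact conditional binomial limits and shares Clopper-Pearson limits, all at 95%. A share or level of 0 is given with the limit that 3 counts allow. A ratio against 0 UMIs was computed with 3 counts over the group. Called genes were at least 4-fold apart. Named genes were the 12 highest and 8 lowest by the limit nearest 1 among called genes with at least 50 CPM, apart in the same direction in every library with at least 20 cells of both groups, and the 12 widest between libraries. The members, gene lists and limits were chosen with earlier results of these data known. With 1 matrix of unlabelled libraries no test between groups was made. The scaling and intervals were tested on simulated data.

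Positions are from GENCODE M21 (30934 of 31053 gene identifiers matched) and promoters from RefSeq GRCm38.p6. Clec6a, Clec7a, Ifi30 and Marchf1 were not analysed here under those symbols, and a few measured genes are not reported here. The alternatives were other limits of the rule, the study's limits on UMIs and genes, Scrublet through scanpy 1.11.5, no CPM filter, equal weight for cells or libraries, thinning to 1500 UMIs and leaving out each library. Python 3.11.15, numpy 2.4.6, scipy 1.17.1, pandas 2.3.3 and matplotlib 3.10.9 were used.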

Additional observations from a re-analysis of the deposited data

Results flagged for a closer look

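Libraries 4, 5 and 6, which entered no comparison, also held cells that met the cDC2 rule: 54 cells in all, 32 in library 4 (1.07% of its cells, 0.733 to 1.51), 12 in library 5 (0.245%) and 10 in library 6 (0.205%). Pooled, they had 111 CPM of Flt3, against 114 in the cDC2 described above. Mgl2 stood at 57.9 CPM in them against 1170, H2-Eb1 at 3767 against 7881 and Lyz2 at 12333 against 4690, and Plac8 at 2223 against 589. S100a8 stood at 2908 CPM in them against 138, and Sftpc, Scgb1a1 and Cdh5 were at 0. The endothelial group had 0, 0 and 1 cells in libraries 4, 5 and 6. The labels do not say what these libraries are, and the differences were not tested.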

How the results depend on the processing

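The share of cDC2 was 1.76%. It was 2.45% with a mitochondrial limit of 5%, 1.47% with at least 2 Cd209a UMIs, and 3.81% with cells carrying RNA of another type left out, a setting chosen after seeing the data that also takes such cells from the total. Leaving out each library in turn gave 1.67% to 1.95%. Without the CPM filter, the counts became 250 higher and 223 lower than in cDC1 (109 and 74 with it), 799 higher than in mature cells (379), 726 higher and 256 lower than in monocytes (249 and 135), and 730 apart between libraries (101). The last count was 60 to 91 with a library left out, 61 without library 3 and 60 without library 7. The counts against other cells stayed within 1.5 times under every other setting run. All 60 named differences from other cells kept their direction and at least 4-fold under 900 alternative values, but the size of the fold moved beyond its interval in 159 of them. These genes had been chosen for wide ratios and for the same direction in every library. That they kept direction and 4-fold was thus largely set by the choice. Of the 12 between libraries, 6 stayed at least 4-fold under every alternative run. Over all 12, 161 of 168 alternative values were at least 4-fold, none reversed and 56 moved. Thinning moved 59 of the 72 named values, and leaving out library 1 moved 19. The share could not be recomputed under settings that act on CPM, and equal library weight was not run for the library count. No paired analysis was possible between the labelled single-cell groups because the libraries carry no group and the matrix was read as 1 sample. The cell groups were chosen by their own RNA, and no result comes from a test. All 4 libraries hold cells of each cell group, so a fit of cell groups paired by library could be computed, but none was run. Few UMIs limit the ratios of Cd207, Gcsam, Il12b and H2-M2, whose intervals are wide.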
